A study of Ovis aries with 24 samples.

Results

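The genes described here carry fatty acids inside cells, take lipid up from the blood or coat stored fat. Their transcripts were followed in liver and in PVWM (periventricular white matter, which borders the lateral ventricles of the brain) of lambs born preterm. The set of 8 genes was chosen by name: the fatty acid binding protein genes FABP1, FABP3, FABP4 and FABP5, together with CD36, LPL, PLIN2 and OLR1. It was put together because FABP4 and FABP5 had stood out in the livers of budesonide-treated lambs, so that pattern chose the set and is described below without a test. Of the 8 genes, 7 were found among the 27716 entries of each count table, and CD36 was not analysed here. In liver all 7 passed the filter on low counts, beside 16824 genes tested in all. In PVWM 4 of the 7 passed (FABP3, FABP5, LPL and PLIN2), beside 18616 genes tested.

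The lambs formed 3 groups, with 4 animals per group in each tissue. Unventilated lambs received neither ventilation nor drug and were 127 or 128 days of gestation. Surfactant lambs were mechanically ventilated and given Poractant alpha, a lung surfactant of porcine origin, into the trachea at 2.5 mL/kg. Budesonide lambs were ventilated and given the same surfactant at the same dose with 0.25 mg/kg of the synthetic glucocorticoid budesonide. The series title calls the ventilation injurious. Ventilated lambs were 126 days of gestation, apart from surfactant animal 007 and budesonide animal 054, which were 127 days. Each library within a tissue carries its own animal number, and 11 of the 13 animals gave both tissues.

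Fatty acid binding proteins are small cytosolic carriers that hold long-chain fatty acids and deliver them to membranes, mitochondria, lipid droplets and the nucleus. FABP1 is the main form of hepatocytes, FABP3 of heart and muscle, FABP4 of adipocytes, macrophages and capillary endothelium, and FABP5 of skin, macrophages and many other cells. Lipoprotein lipase, encoded by LPL, releases fatty acids from circulating triglyceride, OLR1 encodes the scavenger receptor LOX-1 for oxidised low-density lipoprotein, and PLIN2 encodes perilipin 2, which coats lipid droplets in most cells that store fat.

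Total counts were 16.1 to 23.2 M per liver library and 14.9 to 17.5 M per PVWM library. Levels are given as CPM, counts expressed in proportion to library size after scaling for library composition, so they compare animals for 1 gene and not 1 gene with another. All 8 hepatocyte markers examined were detected in liver. Their summed levels were 181278 to 266996 CPM against 108 to 263 CPM in PVWM, where summed neuron markers were 3230 to 4192 CPM. The PVWM library of surfactant animal 051 stood apart in its summed oligodendrocyte markers, at 16373 CPM against 867 to 3506 CPM in the other 11. In whole tissue, a change in the number of cells that express a gene and a change in its RNA per cell cannot be told apart.

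FABP4 in liver was close to absent without budesonide. The 4 unventilated livers held 0, 2, 0 and 1 counts of FABP4 and the 4 surfactant livers 8, 0, 0 and 5. The 4 budesonide livers held 79, 39, 54 and 71 counts, or 4.60, 2.24, 3.14 and 4.57 CPM. Every budesonide liver therefore lay above every other liver, and FABP4 passed the filter on low counts through the budesonide livers alone. The group means were 3.64 ± 1.15 CPM (SD, n = 4) with budesonide, 0.176 ± 0.217 CPM with surfactant and 0.0340 ± 0.0436 CPM unventilated. Summed over animals, 243 against 13 counts gave a ratio of 20.0 to the surfactant group (exact 95% interval 11.5 to 38.1, counting error only). The sum of 3 counts in the unventilated group gave a ratio of 98.7 with an interval of 33.4 to 482. Both intervals leave out the spread between animals, so no test is read from them. The fitted log2 differences were 4.29 ± 0.72 (SE) to surfactant and 6.40 ± 0.87 to unventilated.

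FABP5 was present in all 12 livers and was highest in the same 4. Budesonide livers had 16.9, 19.3, 22.9 and 29.5 CPM of FABP5, surfactant livers 2.72, 3.72, 3.94 and 3.14 CPM, and unventilated livers 4.58, 5.16, 3.18 and 5.36 CPM. The lowest budesonide liver was above the highest of the other 8, and the surfactant and unventilated ranges overlapped. The mean of 22.2 ± 5.50 CPM (SD, n = 4) was 6.55-fold the surfactant mean of 3.38 ± 0.554 CPM and 4.85-fold the unventilated mean of 4.57 ± 0.985 CPM. On the log2 scale these differences were 2.71 ± 0.23 and 2.27 ± 0.23 (SE). Within the budesonide group the order of animals differed between the genes: animal 031 had the most FABP4 and the least FABP5. FABP4 and FABP5 are near neighbours in the sheep assembly ARS-UI_Ramb_v3.0, with 2 protein-coding genes known there only by locus identifiers between them, and FABP12 follows FABP4.

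**Figure D1:**
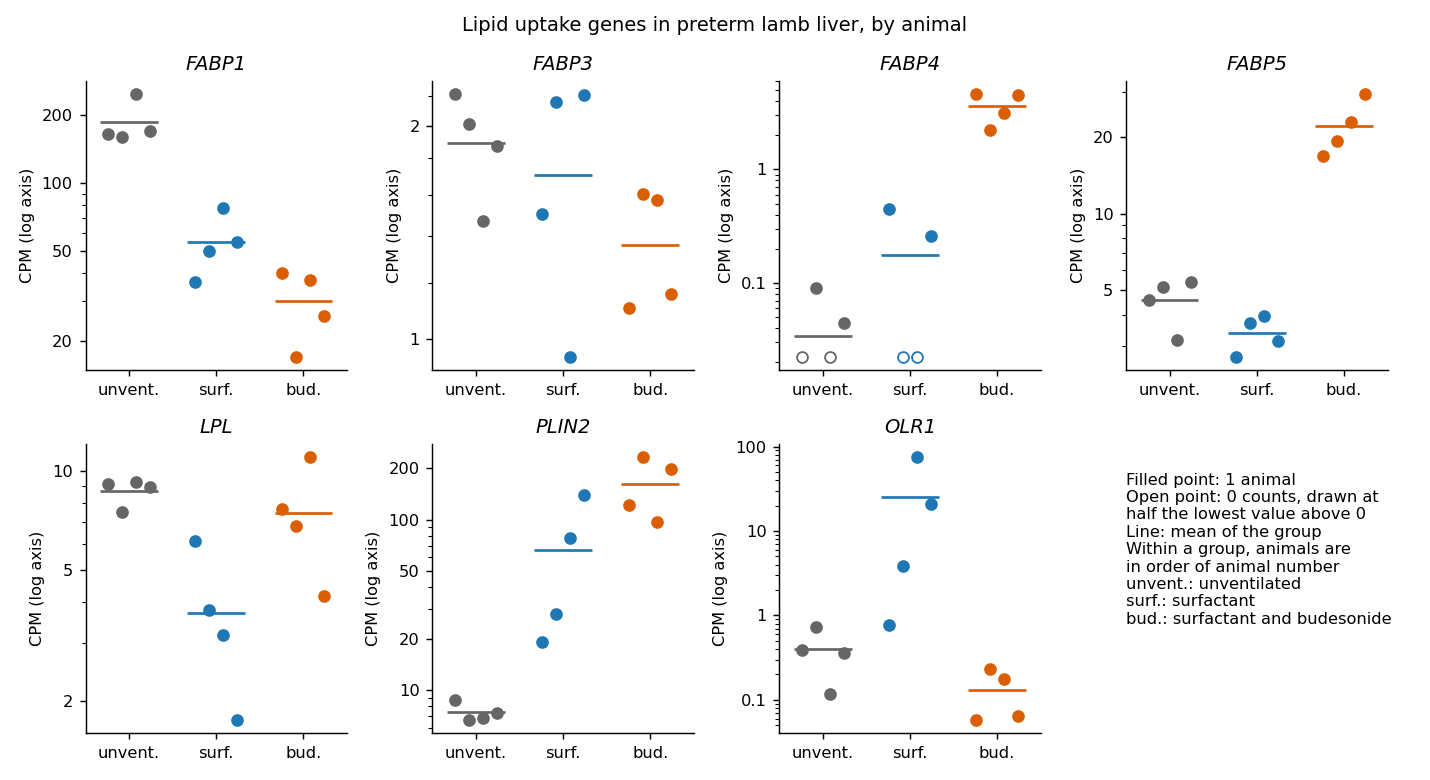
CPM (log axis) of each gene in each of the 12 livers, in 3 groups of 4 lambs. FABP4 and FABP5 are separated from both other groups in all 4 budesonide livers, FABP1 falls from 186 CPM unventilated to 54.7 CPM with surfactant, and OLR1 spans 0.778 to 75.4 CPM within the surfactant group.

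FABP1, the liver form, was lower in the ventilated groups. Unventilated livers had 166, 160, 248 and 170 CPM of FABP1, surfactant livers 36.4, 50.1, 77.4 and 55.0 CPM, and budesonide livers 39.99, 16.97, 37.2 and 25.9 CPM. All 8 ventilated livers were below all 4 unventilated livers. From unventilated (186 ± 41.5 CPM) to surfactant (54.7 ± 17.1 CPM) FABP1 fell by 1.77 ± 0.29 (SE) on the log2 scale, to a level 3.40-fold lower (edgeR adjusted p = 0.000617). The budesonide mean was 30.0 ± 10.6 CPM, with a log2 difference to surfactant of -0.87 ± 0.28, and these ranges overlapped. FABP1 and FABP4 thus lay in opposite order across the 3 group means.

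FABP3, the muscle form, was low in liver at 0.944 to 2.22 CPM, and its 3 groups overlapped. The log2 difference of surfactant to unventilated was -0.15 ± 0.30 (SE; edgeR adjusted p = 0.707). In the same comparison FABP5 had a log2 difference of -0.44 ± 0.23 (adjusted p = 0.140) and FABP4, on 13 against 3 counts, of 2.11 ± 1.10 (adjusted p = 0.140). None of these 3 passed the threshold of 0.05 between the groups without budesonide.

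LPL fell with ventilation and surfactant. Unventilated livers had 9.15, 7.53, 9.29 and 8.93 CPM of LPL and surfactant livers 6.12, 3.78, 3.17 and 1.75 CPM, without overlap. The change from 8.73 ± 0.810 to 3.70 ± 1.82 CPM (SD, n = 4) was -1.24 ± 0.35 (SE) on the log2 scale (edgeR adjusted p = 0.0133). Budesonide livers had 7.68, 6.82, 11.1 and 4.18 CPM, a range that overlapped both other groups. Their log2 difference was 1.01 ± 0.35 to surfactant and -0.23 ± 0.34 to unventilated.

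OLR1 was highest in surfactant livers, where it varied widely between animals. Surfactant livers 007, 032, 049 and 051 held 14, 65, 1358 and 407 counts, or 0.778, 3.90, 75.4 and 20.9 CPM. Unventilated livers had 0.385, 0.730, 0.118 and 0.357 CPM, all below the lowest surfactant liver, although animal 007 was close to them. The means were 0.398 ± 0.252 CPM unventilated and 25.3 ± 34.6 CPM with surfactant (SD, n = 4). OLR1 passed the filter on low counts mainly through the surfactant livers, so its test is taken from the fit without that filter, where its log2 change was 5.93 (edgeR, adjusted p = 0.00556). With the filter the log2 change was 5.93 ± 1.16 (SE), and 4.32 without animal 049. Budesonide livers held 1, 4, 3 and 1 counts of OLR1, at most 0.229 CPM and below every surfactant liver. The budesonide and surfactant sums of 9 and 1844 counts gave a log2 difference of -7.50 ± 1.34, and the 34 counts of the unventilated group one of -1.56 ± 1.61 to it. Summed neutrophil and monocyte markers were 94.2 to 276 CPM in surfactant livers, 28.8 to 91.9 CPM unventilated and 81.6 to 133 CPM with budesonide, and their part in the OLR1 values was not tested.

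PLIN2 rose with ventilation and surfactant, and its highest values were in budesonide livers. Unventilated livers had 8.72, 6.66, 6.82 and 7.32 CPM of PLIN2. Surfactant livers had 19.2, 27.7, 77.5 and 139 CPM, so the 4 animals differed by 7.26-fold among themselves but did not overlap with the unventilated group. The rise from 7.38 ± 0.935 to 65.9 ± 55.3 CPM (SD, n = 4) was 8.93-fold, or 3.16 ± 0.55 (SE) on the log2 scale (edgeR adjusted p = 0.000898). Budesonide livers had 122, 234, 97.3 and 199 CPM, with a mean of 163 ± 64.2 CPM that was 22.1-fold the unventilated mean. The log2 difference to surfactant was 1.31 ± 0.50, and the ranges overlapped through surfactant animal 051.

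Between surfactant and unventilated livers, the comparison that the choice of genes did not use, 2 of the 7 genes rose (PLIN2 and OLR1) and 2 fell (FABP1 and LPL). Over all 16824 genes tested, 21.6% rose and 19.5% fell, so these counts are not far from the background, and OLR1 adds no support to them because of how it passed the filter. With gestational age as a covariate, which largely coincides with ventilation in this design, FABP1 remained past the threshold (log2 change -1.96, edgeR adjusted p = 0.0294). PLIN2 (2.61, adjusted p = 0.0871), LPL (-1.06, adjusted p = 0.210) and OLR1 (1.53, adjusted p = 0.646) did not. For the budesonide livers, which chose the set, no count of called genes is given.

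**Figure D2:**
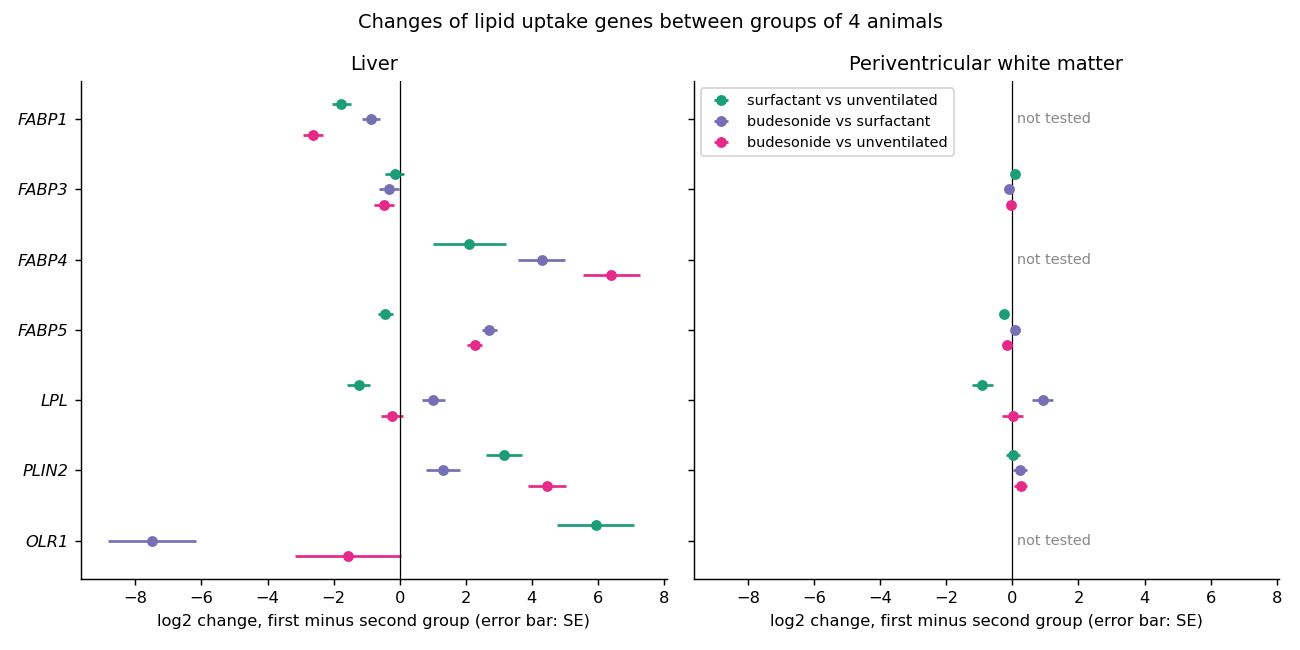
Log2 change of each gene in the 3 comparisons between groups of 4 lambs, in liver (left) and PVWM (right), with the SE as error bar. In liver FABP4 and FABP5 lie to the right in both comparisons with budesonide, at 4.29 and 6.40 and at 2.71 and 2.27, while in PVWM the 4 genes fitted lie between -0.90 and 0.91.

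The liver genes with profiles most like these were found by the root mean square (RMS) difference of mean-centred log2 CPM over the 12 livers, among 11883 genes with a symbol and a mean of at least 1 CPM. For FABP4 they were WIPF3 (RMS difference 0.657), GNMT (0.706) and GAS1 (0.741). GNMT, which encodes glycine N-methyltransferase, had group means of 6.94 CPM unventilated, 15.3 CPM with surfactant and 105 CPM with budesonide, and WIPF3 had 2.37, 5.45 and 84.5 CPM. For FABP5 they were DGKA (0.448), a diacylglycerol kinase gene, STAT4 (0.448) and FHOD1 (0.527). DGKA stood at 9.73, 6.34 and 30.8 CPM in the same order of groups.

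The nearest profiles to OLR1 were those of CD274, which encodes the checkpoint ligand PD-L1 (RMS difference 0.880), PTGS2, which encodes cyclooxygenase 2 (0.953), and LIF, a cytokine gene (1.00). PTGS2 had means of 6.93 CPM unventilated, 414 CPM with surfactant and 7.94 CPM with budesonide. PLIN2 was nearest to MEDAG (0.400), LURAP1L (0.406) and CRYL1 (0.536), FABP1 to SLC2A4RG (0.251), PTGR1 (0.276) and CA9 (0.297), and LPL to FBXO21 (0.262), CREBL2 (0.262) and CCDC47 (0.289). These are descriptions over the libraries in which the genes were chosen.

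FABP4 is a marker of fat cells, so the adipocyte markers of the livers are given with it. The summed level of 5 adipocyte markers was 40.2 to 73.1 CPM in budesonide livers, 13.3 to 31.4 CPM in surfactant livers and 7.94 to 15.1 CPM in unventilated livers. Nearly all of this was AQP7, the aquaglyceroporin gene, at 38.2 to 71.3 CPM with budesonide, 11.8 to 28.6 CPM with surfactant and 4.20 to 11.5 CPM unventilated. ADIPOQ, the adiponectin gene, was at 0 to 0.175 CPM in budesonide livers, 0.120 to 1.29 CPM in surfactant livers and 0.0588 to 0.320 CPM in unventilated ones. PLIN1, the droplet coat of fat cells, was at 0.115 to 0.582, 0.463 to 1.67 and 0.982 to 2.02 CPM in the same order of groups. LEP, the leptin gene, had 1 count in all budesonide livers together. CIDEC, a droplet protein of fat cells, was at 0.989 to 1.48 CPM with budesonide, 0.660 to 1.78 CPM with surfactant and 1.94 to 2.75 CPM unventilated. AQP7 was highest with budesonide, as FABP4 was, and the part of fat cells in the FABP4 values was not tested. Summed endothelial markers were 717 to 940 CPM with budesonide, 672 to 897 CPM with surfactant and 465 to 574 CPM unventilated. Of this sum, LYVE1 alone was 302 to 493 CPM, 188 to 319 CPM and 73.9 to 126 CPM in the same order of groups. Against unventilated livers, edgeR called 3 of the 8 markers higher and 1 lower with budesonide. Over all genes, 23.3% were called higher and 23.7% lower. The single markers differed: of 8, edgeR called 1 higher and 3 lower with budesonide than with surfactant. Over all genes, 4.01% were called higher and 7.85% lower. PLVAP was at 140 to 193 CPM with budesonide and 43.3 to 95.1 CPM with surfactant, and KDR at 26.1 to 39.8 CPM and 61.5 to 81.9 CPM. The part of endothelial cells in the FABP4 values was not tested. Summed macrophage and Kupffer cell markers overlapped in all 3 groups, at 534 to 793, 639 to 735 and 555 to 674 CPM in that order. Here too the single markers differed: of 7, edgeR called 1 higher and 3 lower with budesonide than unventilated. The shares over all genes were again 23.3% and 23.7%. MARCO was at 55.2 to 108 CPM with budesonide and 18.4 to 40.6 CPM unventilated, and CSF1R at 48.7 to 54.9 CPM and 95.7 to 117 CPM. The part of macrophages in the FABP4 values was not tested.

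The other genes of lipid handling were taken as 6 lists with 83 genes, of which 72 were tested in liver. From unventilated to surfactant, 22 of the 72 rose and 15 fell, where 21.6% of all genes rose and 19.5% fell. The median log2 change was 0.10 against -0.02 over all genes. Of 14 lipoprotein and scavenger receptors, 6 rose, 0 fell and 8 did not pass, with a median log2 change of 0.84 and a lowest one of -0.72. Among them CXCL16, a scavenger receptor and chemokine, rose from 14.6 ± 1.04 to 118 ± 74.3 CPM (log2 change 3.01 ± 0.40, edgeR adjusted p = 0.000176). SCARB1, the receptor for high-density lipoprotein, rose by 2.03 ± 0.35 (adjusted p = 0.000912). The SCARB1 call was lost with gestational age as a covariate (edgeR adjusted p = 0.103).

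Of 16 genes of fatty acid transport and activation, 4 rose and 2 fell between the same groups. Over all genes, 21.6% rose and 19.5% fell. ACSL1, which attaches coenzyme A to long-chain fatty acids, rose from 109 ± 18.8 to 835 ± 337 CPM (2.93 ± 0.30, edgeR adjusted p = 2.79e-05). SLC27A6, a fatty acid transporter, fell from 53.2 to 8.53 CPM (-2.64 ± 0.41, adjusted p = 0.000478). Of 12 lipases and their regulators, 3 rose and 2 fell. ANGPTL4, a secreted inhibitor of lipoprotein lipase, rose from 9.44 to 53.8 CPM (2.51 ± 0.47, adjusted p = 0.00136).

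Lipid droplet proteins moved in both directions, with 4 of 17 higher and 6 lower, against 21.6% and 19.5% of all genes. HILPDA and G0S2, inhibitors of the triglyceride lipase ATGL, rose by 4.62 ± 1.00 and 4.06 ± 0.96 on the log2 scale (edgeR adjusted p = 0.00320 and 0.00539). Both calls were lost with gestational age as a covariate (edgeR adjusted p = 0.115 and 0.189). Like PLIN2, HILPDA varied widely among surfactant livers, from 6.50 to 269 CPM. DGAT2, which makes triglyceride, fell from 131 to 12.8 CPM (-3.36 ± 0.35, adjusted p = 3.34e-05). CIDEB, which loads lipid into lipoproteins, fell from 105 to 17.8 CPM (-2.56 ± 0.61, adjusted p = 0.00562). The CIDEB call was lost with gestational age as a covariate (edgeR adjusted p = 0.128). Of 13 lipid-sensing transcription factors, 5 rose and 5 fell, among them CEBPB (3.53 ± 0.37, adjusted p = 3.68e-05) and CEBPA (-3.91 ± 0.61, adjusted p = 0.000480). With gestational age as a covariate the counts over the 72 genes were 7 higher and 3 lower. The shares of all genes given above are from the fit without this covariate.

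**Figure D3:**
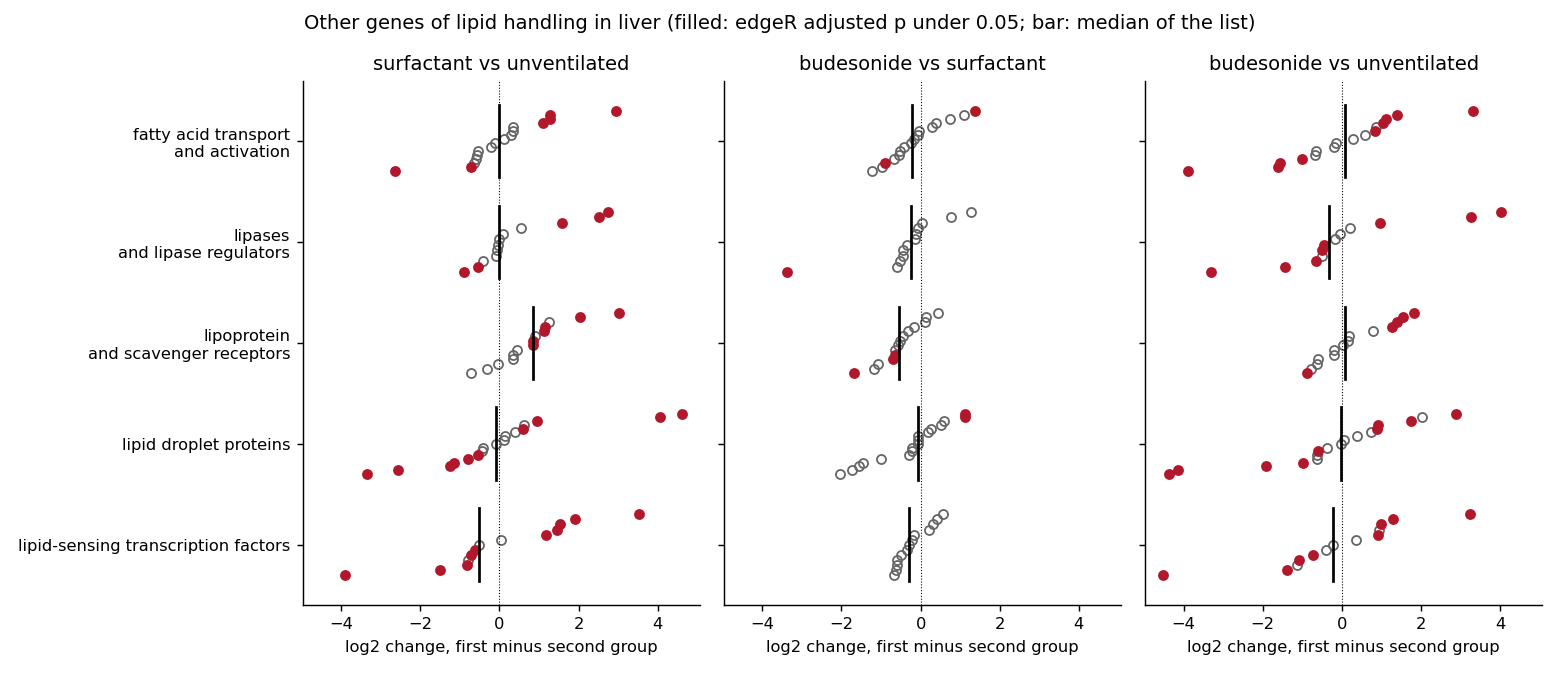
Log2 change in liver of 72 other genes of lipid handling in 5 lists, for the 3 comparisons; each point is a gene, filled where the edgeR adjusted p was under 0.05, and the bar is the list's median. Filled points number 22 to the right and 15 to the left for surfactant against unventilated, and 3 and 5 for budesonide against surfactant.

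With budesonide, 3 of these 72 genes rose and 5 fell against surfactant, with a median log2 change of -0.27 against -0.01 over all genes. Both counts are near the background of 4.01% and 7.85% of all genes. The count of lower genes was unstable, at 15 by DESeq2, 13 without surfactant animal 007 and 12 without surfactant animal 051. CAV1, the caveolin gene of endothelium and fat cells, rose from 7.17 ± 1.41 to 18.5 ± 2.58 CPM (log2 change 1.37 ± 0.29, edgeR adjusted p = 0.0118). PNPLA2, which encodes ATGL, rose from 22.9 to 50.3 CPM (1.13 ± 0.26, adjusted p = 0.0180; 0.0542 without budesonide animal 031). FITM2, a protein of droplet formation, rose from 5.68 to 12.4 CPM (1.13 ± 0.31, adjusted p = 0.0328), a call lost on leaving out animal 031, 048 or 050 (budesonide), or 032, 049 or 051 (surfactant) (adjusted p = 0.0526 to 0.0835).

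The genes that fell were ACSL5, ANGPTL8, SCARF1, VLDLR and LRP1. SCARF1, a scavenger receptor, had an adjusted p of 0.0163 by edgeR, and of 0.0527 when budesonide animal 048 was left out. ACSL5, another acyl-CoA synthetase, fell from 71.3 ± 13.0 to 38.5 ± 6.07 CPM (log2 change -0.89 ± 0.18, edgeR adjusted p = 0.00906). VLDLR, the receptor for very-low-density lipoprotein, fell from 13.2 to 4.09 CPM (-1.69 ± 0.40, adjusted p = 0.0199), and lost its call when animal 031 or 048 (budesonide) or 049 (surfactant) was left out (adjusted p = 0.0545 to 0.0600). ANGPTL8, a secreted regulator of lipoprotein lipase activity, fell from 5.78 to 0.544 CPM (-3.39 ± 0.97, adjusted p = 0.0406), a call lost on leaving out animal 031, 050 or 054 (budesonide), or 007, 032 or 049 (surfactant) (adjusted p = 0.0507 to 0.108). Of 5 other fatty acid binding protein genes, 4 were in the table, and all 4 were below the filter on low counts in liver.

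Against unventilated livers, budesonide livers had 20 of 72 genes higher and 19 lower, near the background of 23.3% and 23.7% of all genes. With gestational age as a covariate the counts were 7 and 7, whereas this background is from the fit without it. ACSL1 was again among the higher ones, at 1087 ± 114 CPM (log2 change 3.31 ± 0.30, edgeR adjusted p = 8.61e-06), with LIPG, the endothelial lipase gene, which rose from 5.87 to 96.1 CPM (4.02 ± 0.67, adjusted p = 0.000451). PNPLA2 rose by 1.75 ± 0.27 (adjusted p = 0.000241). DGAT2 at 6.36 CPM and CEBPA at 2.34 CPM fell by 4.36 ± 0.37 and 4.51 ± 0.63 (adjusted p = 5.95e-06 and 0.000136). This comparison and that of surfactant with unventilated share the unventilated libraries.

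In PVWM, FABP3 and FABP5 were present in all 12 libraries. FABP5 was at 59.5, 61.6, 49.2 and 61.4 CPM in unventilated lambs, 66.7, 45.4, 42.1 and 38.2 CPM with surfactant and 51.3, 54.2, 52.2 and 47.5 CPM with budesonide. The 3 groups overlapped, and the budesonide group, so far apart in liver, lay within the range of the surfactant group. The log2 difference of budesonide to surfactant was 0.09 ± 0.15 (SE; edgeR adjusted p = 0.883) and to unventilated -0.18 ± 0.15 (adjusted p = 0.544). For surfactant against unventilated it was -0.27 ± 0.15 (adjusted p = 0.441). That last difference was -0.47 (adjusted p = 0.0310) without surfactant animal 007, whose FABP5 was the highest of all 12. The genes nearest to FABP5 in PVWM were EPS8 (RMS difference 0.083), PDSS2 (0.107) and UTP4 (0.120), none of which was among its nearest in liver.

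FABP3 was at 68.5 to 76.7 CPM unventilated, 61.7 to 89.9 CPM with surfactant and 60.8 to 84.2 CPM with budesonide. Its log2 differences were 0.07 ± 0.12, -0.10 ± 0.12 and -0.03 ± 0.12 for surfactant to unventilated, budesonide to surfactant and budesonide to unventilated (edgeR adjusted p = 0.845, 0.817 and 0.908). PLIN2 was at 4.89 to 7.08, 5.05 to 7.24 and 5.48 to 9.50 CPM in the 3 groups in that order, all overlapping, with log2 differences of 0.02 ± 0.21, 0.22 ± 0.20 and 0.25 ± 0.20 (adjusted p = 0.972, 0.751 and 0.533).

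LPL in PVWM had its lowest values in the surfactant group. Unventilated PVWM had 6.69, 7.00, 10.6 and 7.86 CPM of LPL, surfactant PVWM 5.88, 5.94, 3.37 and 1.93 CPM, and budesonide PVWM 11.4, 8.86, 5.54 and 6.54 CPM. The surfactant values were all below the unventilated ones and overlapped with the budesonide ones. The log2 differences of -0.90 ± 0.33 (surfactant to unventilated) and 0.91 ± 0.33 (budesonide to surfactant) did not pass after adjustment over all genes (edgeR adjusted p = 0.211 and 0.258). LPL is made by microglia as well as neurons, and summed microglia markers were 104 to 114 CPM unventilated, 73.7 to 101 CPM with surfactant and 29.0 to 44.1 CPM with budesonide. The single markers differed: of 5, edgeR called 1 higher and 2 lower with budesonide than unventilated. Over all genes, 8.06% were called in either direction. CX3CR1 was at 50.7 to 55.7 CPM unventilated and 3.72 to 11.7 CPM with budesonide, and AIF1 at 5.78 to 7.30 CPM and 8.78 to 10.8 CPM. The part of microglia in the LPL values was not tested.

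**Figure D4:**
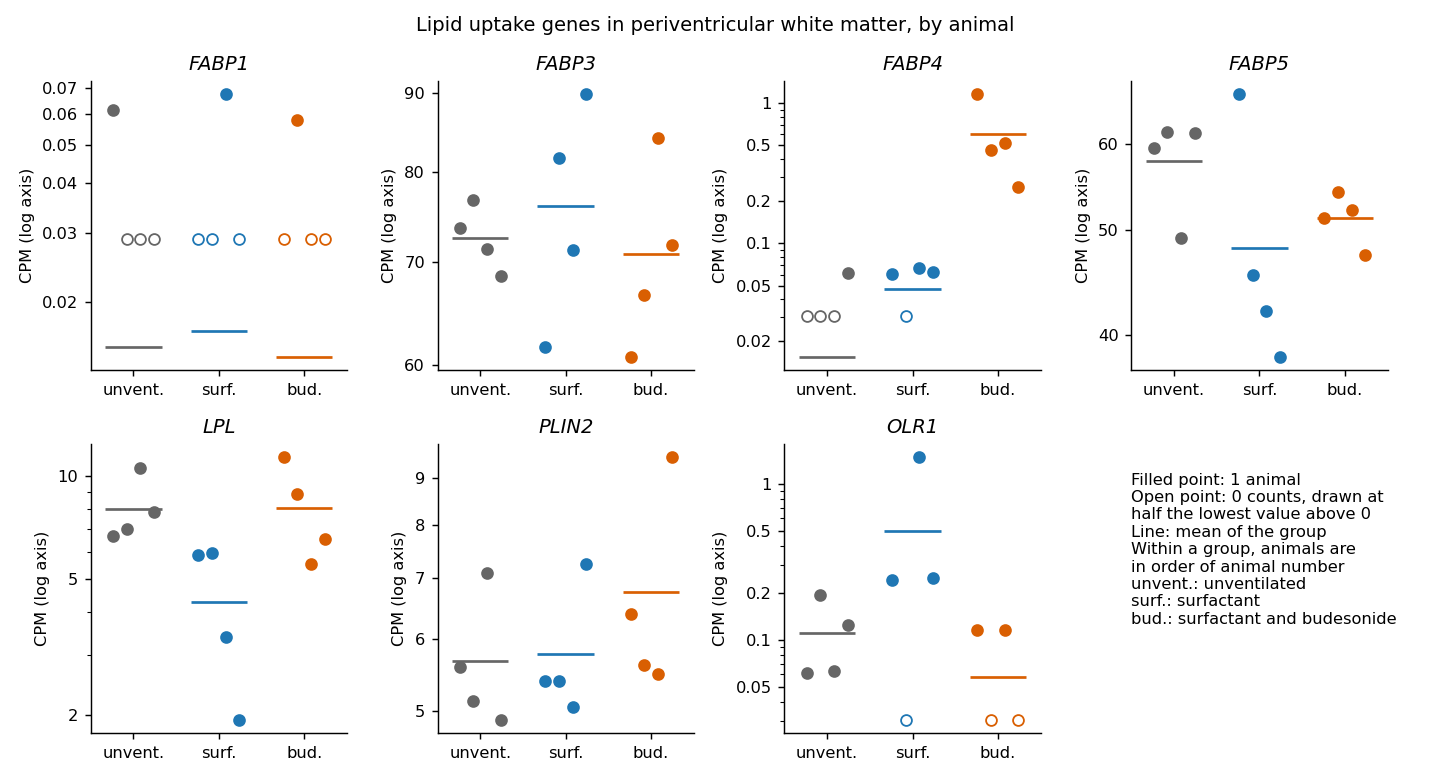
CPM (log axis) of each gene in each of the 12 PVWM libraries, in 3 groups of 4 lambs. The groups overlap for FABP3, FABP5 and PLIN2; FABP4, although at most 1.16 CPM, is higher in all 4 budesonide libraries than in the other 8.

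Of the 4 genes tested in PVWM, edgeR called 0 in each comparison, where 2.05% of all genes were called between surfactant and unventilated, 0.978% between budesonide and surfactant and 8.06% between budesonide and unventilated. Only LPL had an unadjusted p under 0.05, in the first (0.0165) and the second (0.0155) of these comparisons, and none of the 4 did in the third. DESeq2 called 0 of the 4 as well, with an adjusted p for LPL of 0.114 and 0.136.

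FABP4 fell under the count filter in PVWM. Its counts were 20, 8, 9 and 4 in the budesonide libraries, 1, 0, 1 and 1 with surfactant and 0, 0, 0 and 1 unventilated. All 4 budesonide libraries were above the other 8, at 0.252 to 1.16 CPM against at most 0.0674 CPM. The sums of 41 and 3 counts gave a ratio of 12.9 to surfactant (exact 95% interval 4.10 to 64.9), and 41 and 1 counts a ratio of 38.7 to unventilated (6.58 to 1567), for counting error only. These lambs are the same as those of the liver, apart from 1 unventilated animal in each tissue.

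Fitted without the count filter, over 25101 genes, FABP4 in PVWM was higher with budesonide than unventilated by 4.70 ± 0.88 (SE) on the log2 scale (edgeR adjusted p = 0.00445; 5.24% of genes were called). The adjusted p was 0.00466 to 0.0179 when each library was left out in turn, and 0.330 with gestational age as a covariate. Against surfactant the difference was 3.47 ± 0.76 (adjusted p = 0.0528, where 0.657% of genes were called). An exact permutation over animals gave p = 0.0286 in both comparisons with budesonide, the smallest value it can give here. That value follows from the separation of the libraries already described, so it adds no support. After Benjamini and Hochberg adjustment over its 6 comparisons of FABP4 and OLR1, this permutation p was 0.0857. OLR1 in PVWM had 4, 0, 22 and 4 counts with surfactant, at most 3 counts unventilated and at most 2 with budesonide. As in liver, its highest value was in surfactant animal 049, but no comparison of OLR1 in PVWM passed in the fit without the filter (edgeR adjusted p = 0.349 to 0.796). FABP1 had at most 1 count in each PVWM library.

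The change from unventilated to surfactant was compared between the tissues in a fit of all 24 libraries, in which 25.8% of 20010 genes differed. Of the 7 genes, PLIN2 alone differed, with a change in liver that exceeded the change in PVWM by 3.21 ± 0.61 (SE) on the log2 scale (edgeR adjusted p = 0.000548). For LPL, which in both tissues was lower in every surfactant animal than in any unventilated one, the difference between tissues was -0.27 ± 0.50 (adjusted p = 0.753). For OLR1 it was 3.98 ± 2.25 (adjusted p = 0.206), and for FABP1, FABP3, FABP4 and FABP5 the adjusted p was 0.668 to 0.870. FABP1, FABP4 and OLR1 had few counts in PVWM, which limits this comparison for them.

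Of the other genes of lipid handling, 64 were tested in PVWM, and FABP7 was the only other fatty acid binding protein gene among them. FABP7, the form of radial glia and astrocyte precursors, was at 120 to 132 CPM unventilated, 66.0 to 96.9 CPM with surfactant and 51.3 to 64.8 CPM with budesonide, without overlap between any groups. It fell by 0.61 ± 0.12 (SE) on the log2 scale with surfactant (edgeR adjusted p = 0.0202) and by 1.13 ± 0.12 with budesonide (adjusted p = 8.64e-05), both against unventilated. The first call was lost without surfactant animal 049 or unventilated animal 058, 060 or 061 (adjusted p = 0.0501 to 0.0595), with gestational age as a covariate (0.412) and with only these groups in the fit (0.0601). The difference of budesonide to surfactant was -0.52 ± 0.12 (adjusted p = 0.0625). Summed neural progenitor markers were 248 to 284 CPM unventilated, 206 to 291 CPM with surfactant and 153 to 189 CPM with budesonide. Summed astrocyte markers were 3766 to 4735, 5237 to 6104 and 4818 to 6009 CPM in that order. The part of these cells in the FABP7 values was not tested.

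From unventilated to surfactant, 6 of the 64 genes rose in PVWM and 2 fell, where 2.05% of all genes were called. CXCL16 rose from 4.36 to 48.0 CPM (log2 change 3.46 ± 0.28, edgeR adjusted p = 4.67e-05), PLIN3, another droplet coat gene, from 16.3 to 30.5 CPM (0.90 ± 0.15, adjusted p = 0.00700), and PNPLA2 from 16.5 to 26.8 CPM (0.70 ± 0.12, adjusted p = 0.0101). With gestational age as a covariate the counts were 1 and 0, and PLIN3 (adjusted p = 0.211) and PNPLA2 (0.389) were no longer called. Between budesonide and surfactant 0 rose and 2 fell, where 0.978% of all genes were called, among them ACSL5 from 5.89 to 1.92 CPM (-1.62 ± 0.32, adjusted p = 0.0355). The ACSL5 call was lost on leaving out any 1 of the budesonide animals, or surfactant animal 049 or 051 (adjusted p = 0.0505 to 0.0887). Against unventilated PVWM, budesonide PVWM had 9 genes higher and 8 lower, where 8.06% of all genes were called. With gestational age as a covariate the counts were 3 and 3. The shares of all genes in this paragraph are from the fits without that covariate. PNPLA2 rose by 1.10 ± 0.12 (adjusted p = 0.000107) and PLIN3 by 1.27 ± 0.15 (adjusted p = 0.000155), while GPIHBP1, which anchors lipoprotein lipase to capillaries, fell from 5.84 to 2.28 CPM (-1.35 ± 0.25, adjusted p = 0.00427; 0.195 with gestational age as a covariate).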

How the data were processed

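The 2 tables, for 12 liver and 12 PVWM libraries, were deposited by the authors as whole-number counts per gene without normalisation. Per the submitters' processing notes, Bowtie2, featureCounts and edgeR were used. Versions, settings and the genome build are not given in the sources used here. Per the labels' protocols, RNA was extracted with Trizol, selected by poly-A tail and sequenced in pairs. Groups and animal numbers came from the labels. Dates stood in place of 23 gene symbols, and these entries were left out of the joint fit.

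Within each tissue the 3 groups were fitted together with edgeR 4.0.16 in R 4.3.3 (filterByExpr, TMM scaling, robust quasi-likelihood test). A gene was called where its p, adjusted by Benjamini and Hochberg's method over every gene in the fit, was under 0.05. Each SE was derived from the log2 change and the quasi-likelihood F. The common BCV (biological coefficient of variation) was 0.304 for liver libraries and 0.197 for PVWM libraries. Profiles used log2 CPM with a prior count of 2. The liver fit was tried on counts simulated from its own estimates of spread. That cannot test how it treats PVWM or genes with very uneven counts. Within a tissue, the edgeR p-values set a group difference against the spread between animals. The main fit of both tissues treated its 24 libraries as separate, although 11 animals gave both tissues.

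The genes and the lists of other lipid genes were chosen with earlier results of these data known. The budesonide comparisons of the 7 genes in liver have no test for that reason. Up to 2 called genes per list, direction and comparison with the smallest adjusted p and a mean of at least 1 CPM were candidates for naming, and LRP1 was named in addition to complete a count of 5 after its value was seen. A few candidates are not reported here. The fits of FABP4 without the filter that leave out a library or add gestational age were chosen after the counts were seen. The exact permutation of FABP4 and OLR1 in PVWM was added at the same stage. Alternatives were median-ratio scaling, DESeq2 1.42.0, no filter, the 2 groups compared alone, gestational age as a covariate, and leaving out each library.

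The labels give liver and PVWM libraries shared animal numbers, which pair 11 animals. With group means removed, correlations within an animal were 0.0784 to 0.199, of which 6 exceeded 0.1 (median 0.125). The median between different animals was -0.00832. An animal block was therefore tried in the fit of both tissues.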

Additional observations from a re-analysis of the deposited data

Results flagged for a closer look

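In 34 groups of 4 libraries (of 7 genes, 3 groups and both tissues, where at least 1 library held more than 3 counts), the highest or lowest value was examined for a gap to its neighbour above Dixon's 95% critical value, which chance gives in about 1 group in 20. It was found in 4. In liver, unventilated animal 059 had the highest FABP1, at 248 CPM against 160 to 170 CPM in the other 3. In PVWM, unventilated animal 060 had the lowest FABP5, at 49.2 CPM. Surfactant animal 051 had the highest PLIN2 of its group in PVWM, at 7.24 CPM, and also the highest in liver. Surfactant animal 049 had the highest OLR1 in PVWM, at 1.48 CPM or 22 counts, and the highest in liver as well. The change of PLIN2 from unventilated to surfactant differed between tissues, by 3.21 on the log2 scale, by the edgeR test of that difference.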

How the results depend on the processing

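Of 19 tested results for the 7 genes, 4 were called. FABP1 kept its call under every alternative run, the other 3 (LPL, PLIN2 and OLR1 in liver) lost theirs only with gestational age, and 0 reversed. Of 15 not called, FABP5 in PVWM gained a call without surfactant animal 007. Of 68 called results for named list genes, 28 kept the call throughout, 40 lost it at least once and 0 reversed. Age and ventilation largely cannot be told apart, and low counts limit FABP4 and OLR1.

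With gestational age as a covariate, the genes called from unventilated to surfactant in liver were 0 higher (2 without it) and 1 lower (2). List genes were then 7 higher (22) and 3 lower (15) in that comparison, 7 (20) and 7 (19) for budesonide against unventilated liver, 1 (6) and 0 (2) for surfactant against unventilated PVWM, 3 (9) and 3 (8) for budesonide against unventilated PVWM, and 1 lower (2) for budesonide against surfactant PVWM. FABP3 in PVWM turned to -0.12 for surfactant against unventilated. The shares of all genes called in the fits with gestational age are not given here. DESeq2 gave 15 list genes lower (5 by edgeR) for budesonide against surfactant in liver, and 2 higher (0) and 5 lower (2) in PVWM. With only the groups compared in the fit, 2 were lower for budesonide against surfactant in liver and 0 in PVWM, and 3 were higher and 0 lower for surfactant against unventilated PVWM. Without the filter, 1 of the 7 genes, FABP4, was higher for budesonide against unventilated PVWM. The causes were not tested.

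Leaving out 1 library at a time, list genes for budesonide against surfactant in liver were 1 to 4 higher, with 1 without budesonide animal 031. They were 3 to 13 lower, with 13 without surfactant animal 007, 12 without 051, 8 without 050 and 3 without 031 or 048. In PVWM they were 0 to 1 higher (1 without surfactant animal 007) and 0 to 3 lower for that comparison, 1 to 2 lower for surfactant against unventilated, and 5 to 8 higher and 5 to 7 lower for budesonide against unventilated, while 0 to 1 of the 7 genes were lower for surfactant against unventilated. Uncalled log2 differences that changed sign ranged, for surfactant against unventilated, from -0.33 to 0.0069 for FABP3 in liver, -0.018 to 0.16 for FABP3 in PVWM and -0.10 to 0.14 for PLIN2 in PVWM. For budesonide in PVWM they ranged from -0.13 to 0.018 (FABP3) and -0.22 to 0.17 (LPL) against unventilated, and from -0.0027 to 0.29 (FABP5) against surfactant. The tissue difference ranged from -0.32 to 0.036 for FABP3, -0.40 to 1.94 for FABP4 and -0.25 to 0.098 for FABP5.

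With the animal as a replicate block, the tissue difference of PLIN2 was 2.82 (edgeR adjusted p = 0.00441), that of FABP4 turned to -0.84 (adjusted p = 0.569), and no other call among the 7 genes changed.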
